A study of Mus musculus with 4 samples.

Results

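CC chemokines are small secreted proteins that attract leukocytes, and 10 of their genes were followed here across RNA sequencing of macrophages: Ccl2, Ccl3, Ccl4, Ccl5, Ccl6, Ccl7, Ccl8, Ccl9, Ccl12 and Ccl24. They were chosen by gene symbol, and all 10 were listed among 16375 genes. Macrophages were grown with the growth factor M-CSF from bone marrow of wild-type (WT) mice and of mice lacking the long noncoding RNA lncLy6c (LNCKO), the latter on a C57BL/6J background according to the methods, and were left as control or given 500 µM butyrate, a short-chain fatty acid made by gut bacteria, for 24 h. The methods also name C57BL/6 mice, male or female and some weeks old, without saying whether they gave the WT libraries. Each genotype thus had a control and a butyrate library, 4 groups of 1 library in all. The age of the animals behind each library is not stated in the labels. A single library per group leaves every difference without a replicate, and no p-value is given. The intervals printed below cover the counting of fragments only, not the spread between cultures or mice.

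The authors deposited FPKM, fragments per kilobase of gene per 1000000 fragments. The gene length behind these values was the whole genomic span, introns included. FPKM was therefore compared between libraries, and the order of the chemokine genes was taken only from fragments per kilobase of exon per 1000000 fragments. The filter on mean FPKM, the 1 added to each FPKM and the ranks among all genes still rest on FPKM. Long genes are therefore filtered out, or their changes made smaller, more readily than short ones. Whole fragments were recovered for all 10 chemokine genes. Library totals ran from 53363944 to 65521713 fragments. No row carried the name lncLy6c, so the deleted transcript could not be used to check the labels, and the names under which both LNCKO libraries were run (containing NC and R3) do not tell their condition. The Y-linked gene Ddx3y had 65 and 49 fragments in the WT control and WT butyrate libraries against 6128 and 7764 in LNCKO control and LNCKO butyrate. Genotype and sex of the animals therefore cannot be told apart. Macrophage markers were detected, with Cd68 at an FPKM of 307 to 340, Csf1r at 38.3 to 46.5, Adgre1 at 5.86 to 7.45 and Mertk at 1.23 to 1.39. Granulocyte and B-cell transcripts were present too, with S100a8 at 957 to 1316 and Cd79a at 51.3 to 69.3.

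The name of the family comes from a pair of neighbouring cysteines near the start of the mature protein. The ligands act through G protein-coupled receptors, and the pairing is loose. Ccl2, Ccl7 and Ccl12 act mainly through Ccr2, the receptor that brings inflammatory monocytes out of the bone marrow. Ccl3 and Ccl5 act through Ccr1 among other receptors. Ccl8 of the mouse acts through Ccr8, Ccl6 and Ccl9 act through Ccr1 as well, and Ccl24 is an eotaxin that acts through Ccr3 on eosinophils. Macrophages are a major source of several of these ligands. In the sequences below, 30 bases of the coding sequence are shown for all members but Ccl3, in the 5′ to 3′ direction from the GENCODE M21 transcripts, and capitals mark the 2 cysteine codons that define the family.
Ccl2: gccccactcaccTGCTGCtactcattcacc
Ccl7: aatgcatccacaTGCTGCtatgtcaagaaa
Ccl12: accccagtcacgTGCTGTtataatgttgtt
Ccl8: gctccagtcaccTGCTGCtttcatgtacta
Ccl4: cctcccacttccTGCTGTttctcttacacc
Ccl5: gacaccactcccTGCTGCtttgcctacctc
Ccl6: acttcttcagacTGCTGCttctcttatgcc
Ccl9: gactcttcagatTGCTGCctgtcctataac
Ccl24: atcccctcatctTGCTGCacgtcctttatt
The pair was written as TGCTGT in Ccl4 and Ccl12 and as TGCTGC in the others shown. It lay in exon 3 of Ccl6 and Ccl9 and in exon 2 of the others shown, counted in the transcript with the longest coding part. Ccl24 held an earlier pair as well, and the second is shown. The closest coding sequences were those of Ccl3 and Ccl4, identical in 70.1% of aligned columns, followed by Ccl7 and Ccl8 with 66.9%, and then by Ccl6 and Ccl9 and by Ccl8 and Ccl12, both with 66.7%. No stretch of 50 bases was shared between the transcripts of any members. Stretches shared with transcripts of other genes were found only for Ccl9, with 109 of 2996, so reads of the other 9 could be told from those of any annotated transcript at this length.

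Of the 10 genes, 9 lie on chromosome 11 of GRCm38 in 2 groups. Ccl2 (82035571 to 82037453), Ccl7 (82045712 to 82047525), Ccl12 (82101845 to 82103400) and Ccl8 (82115185 to 82116799) lie on the + strand within 81.23 kb. Further along lie Ccl5 (83525778 to 83530518), Ccl9 (83572919 to 83578636), Ccl6 (83587882 to 83593087) and Ccl3 (83647844 to 83649355) on the - strand and Ccl4 (83662584 to 83664683) on the + strand, within 138.9 kb. Ccl24 lies on the - strand of chromosome 5, from 135569937 to 135573049. The annotated genes Gm17268 and E230016K23Rik span Ccl2 and Ccl6 on the opposite strand. Their annotated transcripts share no stretch of 50 bases with those of Ccl2 and Ccl6 on either strand. Whether the counting used strand is not stated. Any reads of these genes from outside their annotated transcripts were therefore not separated here from those of Ccl2 and Ccl6.

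Butyrate in WT macrophages was accompanied by higher Ccl5, Ccl12, Ccl7 and Ccl8, at 1.90- to 2.50-fold of control, and by lower Ccl3, at 0.715-fold. In LNCKO macrophages Ccl8, at 2.43-fold of control, was the one past 1.5-fold among the 9 members averaging an FPKM of 1 or more. Ccl24, the member below that level, had 10 fragments without and 30 with butyrate there. All 10 genes together took 0.193% of the fragments in WT control (95% Clopper-Pearson interval 0.192 to 0.195), 0.285% in WT butyrate (0.283 to 0.286), 0.205% in LNCKO control (0.204 to 0.207) and 0.221% in LNCKO butyrate (0.220 to 0.223). The WT butyrate library thus held the highest share. In RNA from a whole culture, more cells of a type and more RNA per cell cannot be told apart.

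**Figure D1:**
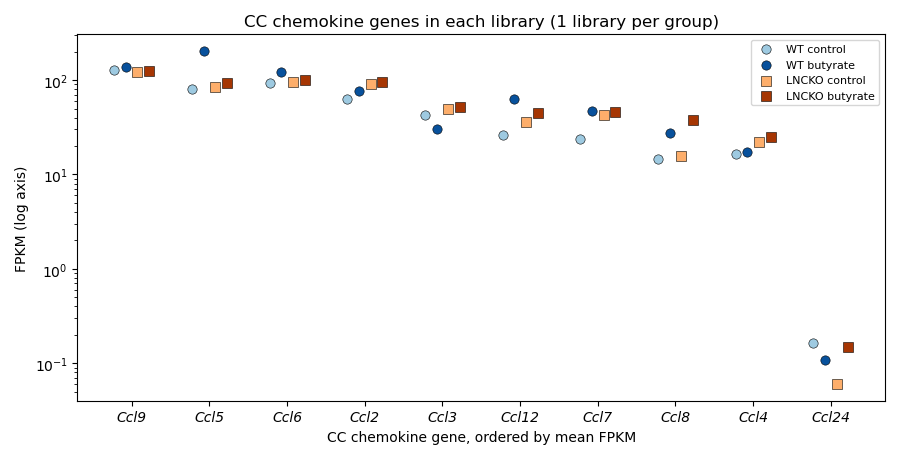
FPKM (log axis) of the 10 CC chemokine genes, ordered by mean FPKM, with 1 point for each of the 4 libraries. Ccl5 in WT butyrate stands at 203 against 81.2 to 92.9 in the other libraries, and Ccl24 is below 0.2 in every library.

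Per length of exon, Ccl5 was the most abundant of the 10 in every library, with 401 fragments per kilobase of exon per 1000000 in WT cells without and 1005 with butyrate, and 422 and 459 likewise in LNCKO cells. Ccl6 (mean 301 over the libraries, range 273 to 357) and Ccl9 (241, range 229 to 258) came next, in that order, in every library, and the ranges of these 3 did not overlap. The order below them shifted between libraries. On the same exon scale, the means were 135 for Ccl2, 123 for Ccl12, 89.8 for Ccl7, 86.1 for Ccl3, 75.7 for Ccl8 and 64.6 for Ccl4, and the ranges of these neighbours overlapped. Ccl3 was at rank 5 of the 10 in WT control and at rank 8 in WT butyrate, while Ccl12 stood at ranks 6 and 4. Ccl24 was last throughout, at 0.145 to 0.397 on this scale. With the length of the longest transcript in place of all exons, the mean of Ccl5 was 822 and that of Ccl6 was 375, with the same order.

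Ccl5, also called RANTES, attracts T cells, monocytes and eosinophils. Its FPKM was 81.2 without and 203 with butyrate in WT, and 85.4 without and 92.9 with it in LNCKO, from 21719, 57095, 21612 and 28863 fragments. The 3 libraries other than WT butyrate lay close together. The ratio of butyrate to control was 2.50 in WT (95% counting interval 2.47 to 2.54) and 1.09 in LNCKO (1.07 to 1.11). On the log2 scale with 1 added to each FPKM, which is used for all log2 values here, the change was 1.31 in WT and 0.12 in LNCKO. The change in WT ranked 8 from the highest of the 6809 genes averaging an FPKM of 1 or more, and the change in LNCKO ranked 531.

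Ccl12, a monocyte attractant of the mouse close to Ccl2, had an FPKM of 26.2 in the WT control library and 63.5 in its butyrate partner, against 36.0 and 44.6 in the LNCKO control and butyrate libraries. WT butyrate was again the highest library, and WT control was the lowest. The ratio with butyrate was 2.42 in WT (2.31 to 2.55) and 1.24 in LNCKO (1.18 to 1.30), which placed Ccl12 at rank 10 of 6809 in WT and at rank 79 in LNCKO.

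Ccl7, another Ccr2 ligand, had an FPKM of 23.5 in WT cells without and 46.6 with butyrate, and 42.7 and 45.8 likewise in LNCKO cells. Its WT control library stood alone at the lower level, and the other 3 libraries lay within 42.7 to 46.6. The ratio with butyrate was 1.98 in WT (1.89 to 2.08), at rank 19, and 1.07 in LNCKO (1.03 to 1.12).

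Ccl8 was past 1.5-fold higher with butyrate in both genotypes. Its FPKM was 14.6 without and 27.7 with butyrate in WT, and 15.6 without and 37.9 with it in LNCKO. The control libraries of both genotypes were alike, at a LNCKO to WT ratio of 1.07 with a counting interval (0.991 to 1.15) that includes 1. The ratio with butyrate was 1.90 in WT (1.78 to 2.03), at rank 24 of 6809, and 2.43 in LNCKO (2.28 to 2.59), at rank 5.

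Ccl3, which attracts monocytes and other leukocytes, was the only gene among the 9 averaging an FPKM of 1 or more that was lower with butyrate in WT. Its FPKM was 42.9 in the WT control library and 30.7 in its butyrate partner, against 49.0 and 52.0 in the LNCKO control and butyrate libraries. The ratio was 0.715 in WT (0.681 to 0.752), at rank 53 from the lowest of 6809, and 1.06 in LNCKO (1.02 to 1.11). Ccl4, its neighbour and closest relative in sequence, did not share the lower value in WT butyrate, with an FPKM of 16.4 in WT cells without and 17.5 with butyrate, and 22.3 and 25.1 likewise in LNCKO cells. Its ratio with butyrate was 1.07 in WT (1.003 to 1.14) and 1.12 in LNCKO (1.07 to 1.18).

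The remaining genes lay closer to level. Ccl2, the main ligand of Ccr2, had an FPKM of 63.0 without and 76.2 with butyrate in WT, and 90.1 without and 96.2 with it in LNCKO, with a ratio with butyrate of 1.21 in WT and 1.07 in LNCKO. Ccl6, a Ccr1 ligand of rodents, was at 94.3, 123, 96.2 and 101 in the same order, with ratios of 1.30 and 1.05. Ccl9, the other Ccr1 ligand of rodents, was the steadiest of the 9, at 128, 138, 122 and 126 with ratios of 1.07 and 1.03. Ccl24 was barely detected, with 29, 20, 10 and 30 fragments and an FPKM of 0.0602 to 0.165. Its ratio with butyrate was 0.657 in WT (0.352 to 1.20) and 2.44 in LNCKO (1.16 to 5.60), so no difference in WT was detectable at this depth, and the value in LNCKO rests on 10 and 30 fragments.

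**Figure D2:**
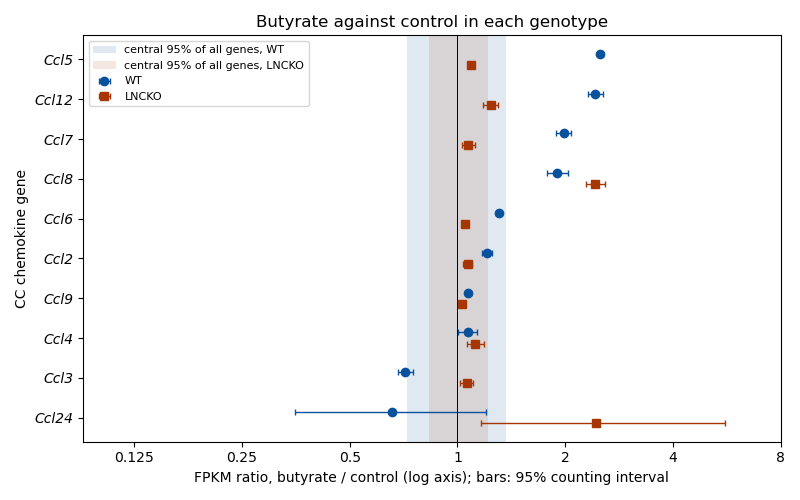
FPKM ratio of butyrate to control (log axis) of each CC chemokine gene in WT (circles) and LNCKO (squares), with bars for the 95% counting interval and shaded bands for the central 95% of the 6809 genes averaging an FPKM of 1 or more, from 0.722 to 1.36 in WT and from 0.833 to 1.22 in LNCKO. Ccl5, Ccl12 and Ccl7 lie above the band in WT, and Ccl3 lies just below it. In LNCKO, Ccl5, Ccl7 and Ccl3 lie within the band and Ccl12 just above it. Ccl8 lies above the band in both. Ccl24, with few fragments, lies below the band in WT and above it in LNCKO.

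Counted on the scale with 1 added over the 9 genes that passed the filter on mean FPKM, 2 were at least 2-fold higher with butyrate in WT, Ccl5 and Ccl12, where 0.264% of all 6809 genes were. At 1.5-fold, Ccl7 and Ccl8 joined them to make 4, against 0.808% of all genes, and none was at least 1.5-fold lower, against 0.441%. Scaling the libraries to their median ratio placed Ccl7 past 2-fold as well. In LNCKO, 1 gene, Ccl8, was past 2-fold and no further gene was past 1.5-fold higher, where 0.103% and 0.294% of all genes were, and none was 1.5-fold lower, against 0.132%. The median log2 change over all 10 was 0.32 in WT and 0.11 in LNCKO, whereas the median of all 6809 genes was -0.04 in WT and -0.01 in LNCKO. In LNCKO all 10 had a higher FPKM with butyrate, although most by little, where 42.2% of the 6809 genes did. In WT 8 of 10 did, where 36.9% of the 6809 genes did. Of the 9 that passed the filter, 9 were higher in LNCKO and 8 in WT.

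Differences in the response between the genotypes were then taken as the log2 change in WT less that in LNCKO. With 1 library in each group this difference could not be tested. It was 1.19 for Ccl5, at rank 10 of 6809, 0.95 for Ccl12, at rank 17, and 0.86 for Ccl7, at rank 20. Of the 9 genes that passed the filter, these 3 were past 1.5-fold, where 0.793% of all genes were, and Ccl5 was past 2-fold, where 0.22% were. On the other side lay Ccl3 with -0.55, at rank 53 from the lowest, and Ccl8 with -0.35. None of the 9 was past 1.5-fold in that direction, where 0.661% of all genes were. Ccl6 stood at 0.31, Ccl2 at 0.18, Ccl9 at 0.05 and Ccl4 at -0.07.

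Without butyrate, the LNCKO library held more of several chemokine transcripts than the WT library. Ccl7 showed the largest difference, at 1.81-fold of WT (1.73 to 1.91) and rank 15 of 6809. Ccl2 was at 1.43-fold (1.39 to 1.48), Ccl12 at 1.38-fold (1.30 to 1.45) and Ccl4 at 1.36-fold (1.29 to 1.45). The first 3 are the Ccr2 ligands of the group around Ccl2. Ccl3 was at 1.14-fold, and Ccl8, Ccl5, Ccl6 and Ccl9 lay between 0.952- and 1.07-fold. Ccl24 was at 0.364-fold (0.158 to 0.769), from 10 fragments against 29. Of the 9 genes that passed the filter, counted on the scale with 1 added, Ccl7 was past 1.5-fold higher, against 0.338% of all genes, none was past 2-fold higher, against 0.191%, and none was 1.5-fold lower, against 0.279%. The comparisons with WT control share that library, so its low Ccl7 enters the change with butyrate in WT and the difference between genotypes alike. Those with WT butyrate share that library in the same way. Its high Ccl5 and low Ccl3 enter the change with butyrate in WT, the difference in response and the difference between genotypes under butyrate, which are not separate results.

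Under butyrate the order of the genotypes split by gene. Ccl5 in LNCKO was at 0.457-fold of WT (0.450 to 0.463), at rank 13 from the lowest of 6809, and Ccl12 was at 0.702-fold (0.675 to 0.730). Ccl3 was at 1.70-fold (1.62 to 1.78), at rank 27 from the highest, followed by Ccl4 at 1.44-fold, Ccl8 at 1.37-fold and Ccl2 at 1.26-fold. Ccl7 was level at 0.983-fold, with a counting interval (0.946 to 1.02) that includes 1. Ccl9 was at 0.916-fold, Ccl6 at 0.824-fold and Ccl24 at 1.36-fold (0.745 to 2.52). Of the 9 genes that passed the filter, counted on the same scale at 1.5-fold, 1 was higher, Ccl3, against 0.764% of all genes, and 1 was lower, Ccl5, against 0.734%. At 2-fold, none was higher, against 0.22%, and 1 was lower, Ccl5, against 0.25%.

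**Figure D3:**
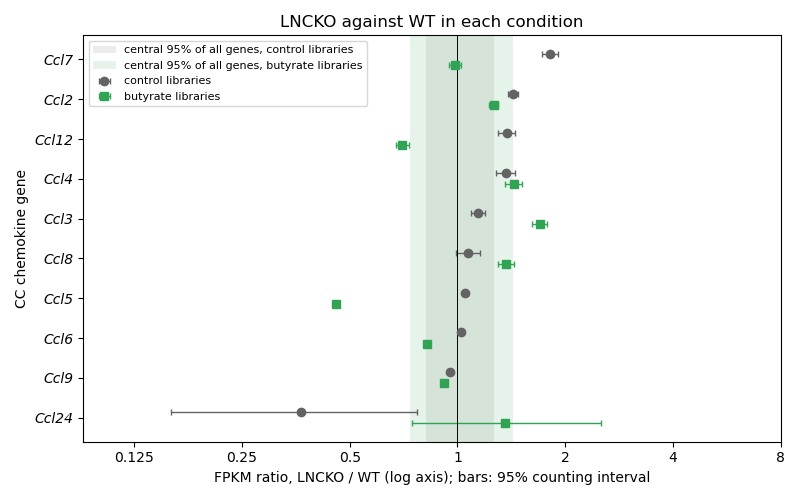
FPKM ratio of LNCKO to WT (log axis) of each CC chemokine gene in the control libraries (circles) and the butyrate libraries (squares), with bars for the 95% counting interval and shaded bands for the central 95% of 6809 genes, from 0.814 to 1.26 in control and from 0.737 to 1.43 under butyrate. Ccl7, Ccl2, Ccl12 and Ccl4 lie above the band in the control libraries, and Ccl24, with few fragments, lies below it. In the butyrate libraries Ccl3 and Ccl4 lie above the band and Ccl5 and Ccl12 below it.

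Neighbours on chromosome 11 had unlike values. In the group from Ccl2 to Ccl8, the log2 change with butyrate in WT ran from 0.27 for Ccl2 to 1.25 for Ccl12, with a median of 0.92, and in LNCKO from 0.09 for Ccl2 to 1.23 for Ccl8, with a median of 0.20. In the group from Ccl5 to Ccl4, it ran in WT from -0.47 for Ccl3 to 1.31 for Ccl5, with a median of 0.10. In LNCKO the same 5 genes stayed between 0.05 and 0.16. Ccl12 and Ccl8, which are next to each other, differed in that the LNCKO change was smaller for Ccl12 and larger for Ccl8.

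**Figure D4:**
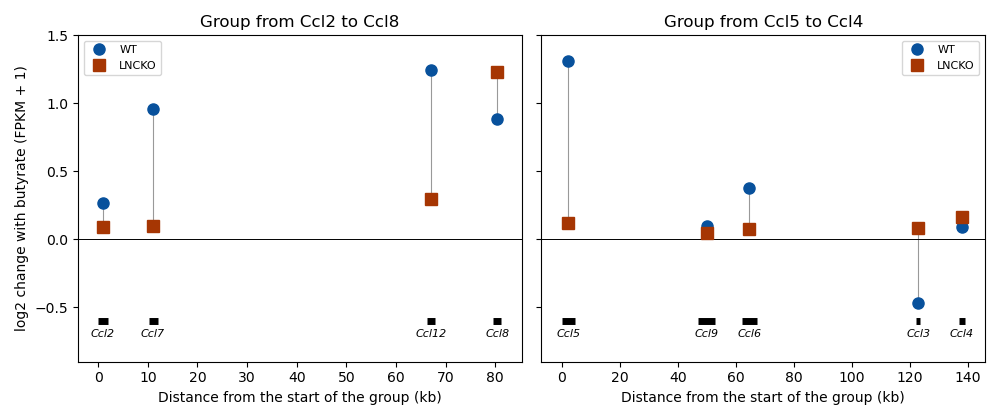
Log2 change with butyrate (FPKM + 1) of the 9 CC chemokine genes on chromosome 11 against the distance from the start of each group in kb, in WT (circles) and LNCKO (squares), with black bars for the gene bodies. Ccl5 stands at 1.31 in WT beside neighbours between -0.47 and 0.38, and all 5 genes of its group lie between 0.05 and 0.16 in LNCKO.

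Promoter sequence was held for 5 of the 10 genes in the RefSeq table of GRCm38.p6, namely Ccl12, Ccl8, Ccl3, Ccl6 and Ccl9, and not for Ccl2, Ccl4, Ccl5, Ccl7 and Ccl24. The 250 bases before the start are shown for the neighbours Ccl12 (chr11:82101595-82101844, + strand) and Ccl8 (chr11:82114935-82115184, + strand), both higher with butyrate in WT, and for Ccl3 (chr11:83649379-83649628, - strand), which was lower. Capitals mark matches on either strand to 5 motifs: TATAAA (the TATA box), GGGNNTTCC (which covers many NF-kB sites), GAAANNGAA (within interferon response elements), TGANTCA (bound by AP-1) and GAGGAA (the core of sites for ETS factors such as PU.1).
Ccl12: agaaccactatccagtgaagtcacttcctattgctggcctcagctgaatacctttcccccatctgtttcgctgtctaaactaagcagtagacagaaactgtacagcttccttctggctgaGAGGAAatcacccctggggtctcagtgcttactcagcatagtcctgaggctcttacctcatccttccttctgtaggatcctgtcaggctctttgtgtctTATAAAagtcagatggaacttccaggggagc
Ccl8: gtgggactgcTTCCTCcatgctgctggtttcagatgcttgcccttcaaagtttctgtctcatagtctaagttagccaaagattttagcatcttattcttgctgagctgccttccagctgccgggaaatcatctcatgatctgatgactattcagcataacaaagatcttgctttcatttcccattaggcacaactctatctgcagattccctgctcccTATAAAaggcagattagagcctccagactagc
Ccl3: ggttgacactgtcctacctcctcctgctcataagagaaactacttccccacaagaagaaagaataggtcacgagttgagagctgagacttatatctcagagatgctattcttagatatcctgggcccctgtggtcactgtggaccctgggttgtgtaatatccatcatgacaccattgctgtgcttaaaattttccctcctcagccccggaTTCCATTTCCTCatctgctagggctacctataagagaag
Ccl12 and Ccl8 each held TATAAA on the strand of the gene, from 31 to 26 and from 32 to 27 bases before the start. Ccl3 had no TATAAA in its window. That window ends at 83649379, upstream of the GENCODE M21 start of Ccl3 at 83649355, while those of Ccl12 and Ccl8 reach theirs. The bases between were thus not searched for Ccl3, and only the exact letters counted as a match. TATAAA was also found in Ccl9, and on either strand in 12.4% of 32851 promoters. GAGGAA was found in the 3 promoters shown and in 23.3% of all. GAAANNGAA was found in Ccl3 alone of the 5, on the opposite strand from 39 to 31 bases before the start, where it overlaps the match to GAGGAA from 33 to 28, and in 7.13% of all promoters. Ccl9 alone of the 5 held TGANTCA, found in 6.75% of all, and GGGNNTTCC, found in 4.98%. No match was found in Ccl6. A match to these letters is a description of the sequence and not a site in use.

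The receptors for these ligands were measured in the same libraries. Of 12 receptor genes listed, 5 had a mean FPKM of at least 1 and none was past 1.5-fold with butyrate in either genotype on the scale with 1 added. Of all 6809 genes, 0.808% were past 1.5-fold higher and 0.441% lower in WT, and 0.294% and 0.132% in LNCKO. Ccr2 had the highest FPKM of them. It was at 146 in the WT control library and 132 in its butyrate partner, against 131 and 132 in the LNCKO control and butyrate libraries. Ccr1 was at 53.2, 60.8, 57.8 and 60.0 in the same order. Ccr3 was at 1.79, 0.937, 2.08 and 1.42, so that without the pseudocount it was past 1.5-fold lower with butyrate in WT. Cx3cr1, which did not pass the filter, was at 0.826, 0.482, 0.652 and 0.647, from 7842, 4799, 5854 and 7138 fragments. It too was past 1.5-fold lower in WT without the pseudocount. Over all 12 receptor genes, 4 were higher and 8 lower with butyrate in WT. Ccr8, the receptor of Ccl8, was at 0.0363 or less. Ccrl2, an atypical receptor that binds without signalling, was higher in LNCKO than in WT, with log2 differences of 0.41 in control and 0.53 under butyrate. Of the other chemokines of the CC, C and CX3C families, 10 of 13 were listed and only Ccl22 passed the filter, at an FPKM of 3.47 to 3.67. Of the 15 genes for signalling below the receptors, 14 passed and none was past 1.5-fold with butyrate on the scale with 1 added.

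Genes for factors known to act on chemokine transcription or mRNA decay gave the following values. Of all 6809 genes, 4297 were lower with butyrate in WT, and 36.9% were higher in WT and 42.2% in LNCKO. Past 1.5-fold higher were 0.808% in WT and 0.294% in LNCKO, and past 1.5-fold lower 0.441% and 0.132%. Of 10 NF-kB subunits and inhibitors, 8 were lower with butyrate in WT, with a median log2 change of -0.11 against 0.02 in LNCKO. Among 9 IRF and STAT genes, several of which act in interferon signalling, 6 were higher and 3 lower with butyrate in WT, with a median log2 change of 0.05 against 0.04 in LNCKO. Irf9 of that list stood at 0.31 in WT and at 0.06 in LNCKO, Stat2 at 0.31 and 0.13, and Irf7 at -0.02 and 0.21. Of 11 interferon-stimulated genes, 10 were higher with butyrate in each genotype, with medians of 0.15 in WT and 0.26 in LNCKO and none past 1.5-fold. Zfp36, which binds AU-rich mRNA such as that of several chemokines and promotes its decay, was at 156 in WT control and 130 in WT butyrate, and at 170 and 164 in LNCKO. Zfp36l1, of the same family, went the other way in WT, at 84.3 in control and 104 with butyrate, a log2 change of 0.30 against 0.04 in LNCKO. The 7 regulators of AU-rich mRNA had a median log2 change of -0.02 in WT, 3 higher and 4 lower, and none was past 1.5-fold. The median of all genes in WT was -0.04, so the NF-kB median and the Zfp36 value lay below it and the Irf9 and Stat2 values above it. Nfkbie and Nfkbiz of the NF-kB list, at 0.04 and 0.05 in WT, lay above it. The part of these factors in the chemokine values was not tested.

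**Figure D5:**
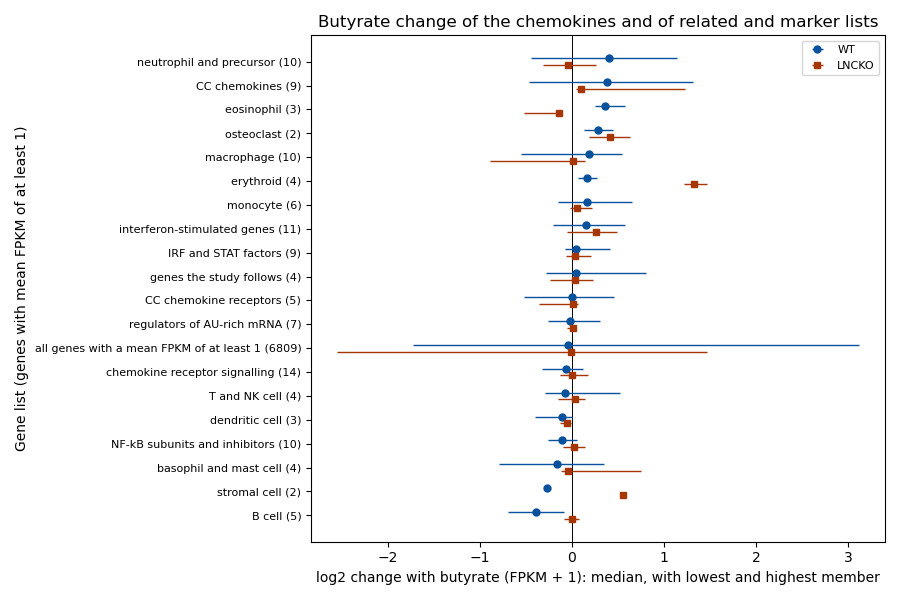
Median log2 change with butyrate (FPKM + 1) of the CC chemokines and of related and marker gene lists in WT (circles) and LNCKO (squares), with lines from the lowest to the highest gene and the number of genes averaging an FPKM of 1 or more in brackets. The chemokines (median 0.38 over 9 genes) and the neutrophil and precursor genes (0.40) lie highest in WT, and the erythroid genes lie highest in LNCKO (1.32).

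Markers of other cells also differed between the WT libraries. Of 10 neutrophil and precursor genes, 7 were higher with butyrate in WT, where 36.9% of all 6809 genes were. Past 1.5-fold higher were 3, where 0.808% of all genes were: Mmp8 with a log2 change of 1.14, Ly6g with 1.05 and Elane with 0.68. The summed FPKM of the list was 2707 in WT cells without and 3232 with butyrate, and 2341 and 2253 likewise in LNCKO cells. Ngp, Camp and Ltf of the same list were lower. Monocyte genes had a median of 0.16 in WT and 0.06 in LNCKO, with Vcan at 0.65 and -0.02. B-cell genes had a median of -0.39 in WT and 0.00 in LNCKO, with a summed FPKM of 209 without and 164 with butyrate in WT, and 213 without and 216 with it in LNCKO. Medians in WT and LNCKO were 0.36 and -0.14 for 3 eosinophil genes, -0.11 and -0.06 for 3 dendritic cell genes, -0.17 and -0.04 for 4 basophil and mast cell genes, -0.27 and 0.56 for 2 stromal genes, 0.29 and 0.41 for 2 osteoclast genes, and 0.18 and 0.01 for 10 macrophage genes. Over all 7 listed stromal genes, without the filter, the WT median was 0.07, with 4 higher and 3 lower. T and NK cells are a known source of Ccl5. The T-cell markers Cd3e, Cd3d and Cd3g were at an FPKM of 0.294 or less in every library. In WT control and WT butyrate, Cd3e was at 0.0700 and 0.0310, Cd3g at 0.0882 and 0.0638, and Cd3d at 0.0894 and 0.113. The NK-cell markers Klrb1c and Ncr1 were at 0.0512 and 0.0786 in WT control and at 0.0220 and 0.0227 in WT butyrate. Of the list of 12 genes, 11 were listed, 4 passed the filter, with medians of -0.08 in WT and 0.04 in LNCKO (-0.04 and -0.02 over the 11), and the summed FPKM of the 11 was 16.3 in the WT control library and 20.5 in its butyrate partner, against 19.3 and 18.3 in the LNCKO control and butyrate libraries. Gzma was listed at 0 in WT butyrate. Nkg7, also of that list, made up most of each sum. It was at 10.5 in WT cells without and 15.6 with butyrate, and 13.3 and 11.9 likewise in LNCKO cells. Over the 11 genes, 3 were higher and 8 lower with butyrate in WT. Between the genotypes, haemoglobin genes were higher in LNCKO, with Hba-a1 at 2.97 and 3.15 in WT against 10.2 and 28.6 in LNCKO, and Lyz2, a macrophage and granulocyte gene, was at 1972 without and 2871 with butyrate in WT, and at 1609 without and 870 with it in LNCKO. The part of other cells in the chemokine values was not tested.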

How the data were processed

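RNA sequencing of bone marrow-derived macrophages was taken as deposited, with 4 libraries and 1 library per group, each mapped to its group by its title and its genotype and treatment labels. The authors deposited FPKM values, and the submitters' processing notes name STAR 2.5.0c, Picard 1.126, bedtools 2.17.0, HTSeq 0.6.0, DESeq2 3.0 and the builds GRCm38 and mm10. The methods give TRIzol extraction and an MGISEQ-2000 platform, whereas the labels give RNeasy, TruSeq and Illumina protocols, and which were used is not settled by the files. Strand use in counting was not given in the sources used here.

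Of 16375 genes, 16342 matched GENCODE M21 by identifier and 262 had no symbol. For each library, a total was searched that turns FPKM times genomic span into whole fragments. Values within 0.02 of a whole number in all 4 libraries were found for 16093 genes (98.5%), the 10 chemokines included. No column of another sample was present.

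Changes were log2 ratios of FPKM with a pseudocount of 1, computed over all genes. Calls at 2-fold and 1.5-fold used the 6809 genes averaging an FPKM of 1 or more, which 9 of the 10 chemokines passed. Ratios carry exact Clopper-Pearson intervals of the fragment counts. Paired reads without molecular identifiers are not independent molecules, so these intervals cover counting error only. A fold on the scale with a pseudocount understates the change of genes low in FPKM, long genes among them, since FPKM used the genomic span. With fragments per 1000000 in place of FPKM, 75 of 11738 genes were past 2-fold higher with butyrate in WT, 2 chemokines among them. Count models were not run, since no spread can be estimated from 1 library per group.

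The genes that the text names are the 10 members, genes of the lists (related chemokines, receptors, signalling, NF-kB, IRF and STAT, AU-rich mRNA, interferon-stimulated genes and cell type markers) and, for Ccl5 and Ccl12, the 5 genes nearest in pattern. The members and lists were chosen with earlier results of these data known. Ddx3y and both genes that overlap members were named after their values were seen. The alternatives were other pseudocounts, filters, folds and scalings and another gene length. On simulated data, 2 of 2 library totals were recovered. For butyrate in WT, with 6802 genes simulated, 100 of 100 genes raised 4-fold, 72 of 100 lowered 4-fold and 0 of 6602 unchanged genes were called past 2-fold. The simulated counts held counting error only, without a spread between cultures or mice. They therefore cannot show how often that spread alone would carry a gene past 2-fold. All steps ran in Python 3.11.15 with pandas 2.3.3, scipy 1.17.1 for the intervals, numpy 2.4.6, and matplotlib 3.10.9 for the plots. Values of a few listed genes and the coding window of 1 member are not reported here.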

Additional observations from a re-analysis of the deposited data

Results flagged for a closer look

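Ccl3 had opposite directions with butyrate in the genotypes, at -0.47 on the log2 scale in WT and 0.0840 in LNCKO. Ccl24 did so as well, at -0.0719 in WT and 0.11 in LNCKO, from 30 or fewer fragments in each library. With 1 library per group neither difference was tested. No group was large enough for a check of single samples that stand apart.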

How the results depend on the processing

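Of 250 chemokine changes under the alternatives, 225 moved by no more than the half-width of their 95% counting interval and 25 moved further. One, the LNCKO to WT value of Ccl7 under butyrate, changed sign, from -0.02 to 0.02 with values rescaled to 1000000 per library. Rescaling also shifted the median of all genes in WT to -0.10. The log2 change of Ccl5 with butyrate in WT ran from 1.27 to 1.37, that of Ccl12 from 1.22 to 1.30 and that of Ccl3 from -0.54 to -0.41. The median LNCKO to WT difference under butyrate over all 10 moved from 0.01 to 0.16 without a pseudocount and to 0.15 with rescaled values. With 1.5-fold in place of 2-fold, the chemokines called higher went from 2 to 4 for butyrate in WT, from 0 to 1 for LNCKO against WT in control and from 0 to 1 under butyrate. Over all genes, the 18 past 2-fold higher with butyrate in WT became 9 when a mean FPKM of 5 was required and 91 with rescaled values, and the 7 in LNCKO became 4 and 57. The former setting lowered the genes tested from 6809 to 2544 and the latter raised them to 11021. The 13 in control became 5 and 57, and the 15 under butyrate became 9 and 87. Of 276 list medians, 41 moved further than 0.1 on the log2 scale and 17 changed sign. Of 10 exon levels, Ccl5 and Ccl6 moved with the length of the longest transcript. Beyond the number of genes tested, the cause of these moves was not tested. No paired analysis was possible because each group holds 1 library and no result comes from a test, and for the same reason no library could be left out. Depth limits Ccl24, which had 10 to 30 fragments.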

Other observations

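Outside the family, the 5 genes whose values over the 4 libraries lay nearest to those of Ccl5 (Euclidean distance of log2(FPKM + 1), each gene centred on its own mean) were Inpp5j at 0.138, AF067061 at 0.152, Mmp8 at 0.160, Fn1 at 0.230 and Tmem119 at 0.234. Mmp8 encodes the neutrophil collagenase and Fn1 encodes fibronectin. Mmp8 had an FPKM of 60.9 without and 135 with butyrate in WT, and 60.8 without and 60.6 with it in LNCKO. The nearest member to Ccl5 was Ccl12, at a distance of 0.516.

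For Ccl12 the nearest genes were Saa3 at 0.172, Mmp27 at 0.295, F7 at 0.333, Ppbp at 0.339 and Thbs1 at 0.359. Saa3, an acute-phase protein made by macrophages, had an FPKM of 221 in the WT control library and 461 in its butyrate partner, against 264 and 321 in the LNCKO control and butyrate libraries. The nearest member to Ccl12 was Ccl7, at 0.499. These distances rest on 4 libraries and are a description only.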
